A study of Mus musculus with 6 samples.

Results

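The insulin-like growth factor (IGF) axis was followed through the cell types of the mouse bladder mucosa, before and after injury by cyclophosphamide (CPP). The members were set as a list of 9 genes, matched by Ensembl identifier to the 14450 genes that all 6 expression tables listed. They are the ligand *Igf1*, the receptors *Igf1r* and *Igf2r*, and the binding protein genes *Igfbp2* to *Igfbp7*. All 9 members were found in every table, and all of them passed the low-count filter in at least 1 comparison. Single-cell libraries were made by droplet sequencing from the mucosal layer torn from bladders of wild-type C57BL/6 mice aged 8 weeks. The healthy group was uninjured, the acute group was taken 48 h after CPP, and the chronic group received 4 rounds of CPP within 11 days. There were 2 libraries per group, and the labels gave neither a batch nor the number of mice per library. The study's methods mention batches without naming the libraries in each, so batch and group cannot be told apart. They describe several mice of both sexes per condition and a density separation of the dissociated cells, so the cells recovered need not represent the tissue's own composition.

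IGF1 is a secreted growth factor that acts through IGF1R, a receptor tyrosine kinase feeding the PI3K-AKT and MAPK cascades. IGF2R, the cation-independent mannose 6-phosphate receptor, carries lysosomal enzymes and takes up IGF2 for degradation, without a kinase of its own. The IGF-binding proteins hold IGFs outside the cell, where they prolong their life and either withhold them from the receptor or release them next to it. IGFBP7 binds IGFs weakly and is best known as a matrix protein of blood vessels. The urothelium is a layered epithelium of basal, intermediate and superficial cells, and the connective tissue under it holds fibroblasts, myofibroblasts, vessels and immune cells.

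The 6 libraries held 56629 barcodes and between 54604109 and 111985678 unique molecular identifiers (UMIs, 1 per captured mRNA molecule) each. After filtering, 55398 cells were clustered without the 9 members among the clustering genes, and 50800 were left once called doublets were removed. Clusters were named from fixed marker lists, so that each class name below means cells with that marker profile (a macrophage-like cluster is called macrophages). The largest classes were 25700 intermediate, 6643 basal and 3103 superficial urothelial cells, 4387 fibroblasts (with *Pi16*, *Scara5* or *Inmt* types) and 4484 myofibroblasts. Macrophages counted 475 cells, dendritic cells 389, endothelial cells 495 and mural cells, the contractile cells of vessel walls, 179. Pairs of libraries shared between 36 and 229 barcodes, at most 2.28% of the smaller library. Chronic replicate 2 had only 49 fibroblasts, in which the summed urothelial markers reached 44.2% of their level in urothelial cells and the mesenchymal markers 40.5% of their level in mesenchymal cells. In fibroblasts of the other libraries these shares ran from 6.08% to 22.7% and from 85.2% to 99.9%. A level is given in CPM, the gene's UMIs per 1000000 UMIs of its class in 1 library, taken over classes with at least 20 cells, and values for 6 libraries are given in the order healthy replicates 1 and 2, acute replicates 1 and 2, and chronic replicates 1 and 2. In such sums, fewer expressing cells and less RNA per cell cannot be told apart. Comparisons used edgeR's quasi-likelihood test on the summed UMIs, with p-values adjusted by the Benjamini-Hochberg method over all genes tested and a threshold of 0.05. These p-values measure only the spread between libraries. The fitted log2 differences include edgeR's TMM scaling of the sums, which the levels do not. The fitted differences can therefore depart from ratios of the levels.

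**Figure D1:**
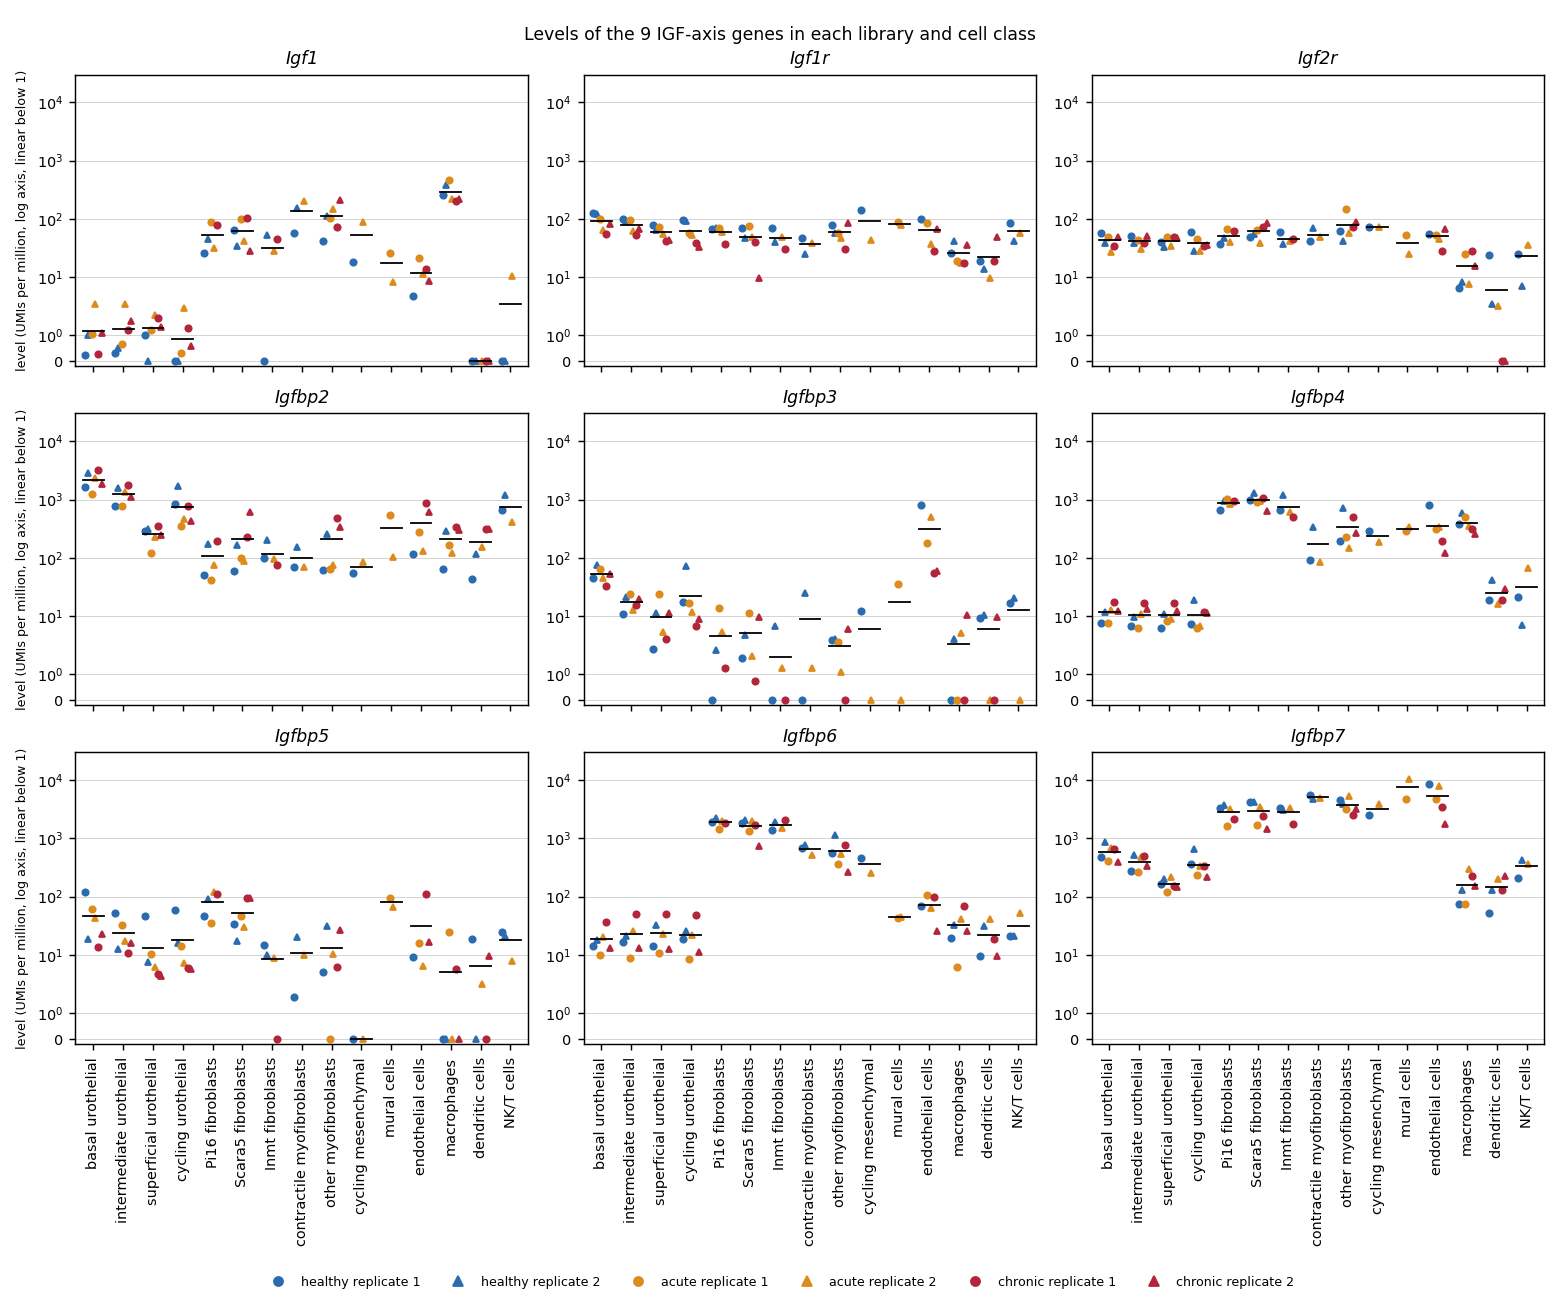
Level of each member in 15 cell classes, 1 point per library with at least 20 cells of the class, on a log axis of CPM, linear below 1. By mean over libraries, *Igf1* was highest in macrophages, *Igfbp2* in basal urothelial cells, *Igfbp3* in endothelial cells, *Igfbp4* and *Igfbp6* in fibroblasts and *Igfbp7* in vessel and myofibroblast classes.

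The ligand *Igf1* was highest in macrophages, at 255.8, 373.7, 461.8, 218.5, 199.8 and 217.3 CPM (mean 288 ± 106, SD, n = 6). In mesenchymal cells, that is fibroblasts, myofibroblasts and 122 cycling mesenchymal cells together, it reached 41.3, 61.0, 97.7, 134.9, 91.2 and 137.4 CPM. Macrophages thus lay above mesenchymal cells in all 6 libraries, and the groups of values did not overlap. The fitted difference from mesenchymal cells was 1.99 on the log2 scale (SE 0.33, edgeR adjusted p = 0.00066), or 3.97-fold. The median ratio of the levels was 3.46. Against myofibroblasts alone, macrophages were higher in 6 of 6 libraries, by 1.09 to 5.90 times. The highest values of other and contractile myofibroblasts, 207.2 and 203.2 CPM, lay above the lowest macrophage value. Of all 3720 *Igf1* UMIs, the more numerous mesenchymal cells held 76.1% and myeloid cells 10.9%, but 2159 of these UMIs came from acute replicate 2, where the shares were 85.5% and 3.98%. In the other 5 libraries mesenchymal cells held 46.9% to 73.0% and myeloid cells 10.1% to 26.2%.

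Among the myeloid cells, *Igf1* separated macrophages from dendritic cells, the antigen-presenting cells of the same lineage. No *Igf1* UMI was found in any of 5 libraries with enough dendritic cells, 0 of 375 cells, which allows a share of up to 0.8% of cells with a UMI. In macrophages, between 29.1% and 73.0% of cells per library had at least 1 *Igf1* UMI. The share was between 24.6% and 62.2% after cells with at least 2000 UMIs were thinned to 2000 and the others left out. Within macrophages the level also differed between sub-clusters, which were singled out after their values had been seen. A sub-cluster of 222 cells led by *Folr2*, *Lyve1*, *Ccl8* and *F13a1*, genes known from tissue-resident macrophages, held 440 ± 86.9 CPM of *Igf1* (SD, n = 5). Another sub-cluster, of 205 cells, held 108 ± 81.6 (SD, n = 4). Its leading genes included the inflammatory *Cxcl2*, *Ccl3* and *Tnf*, but also *Cx3cr1* and *Trem2*. The libraries of the 2 sub-clusters ranged from 350 to 557 and from 38.3 to 219, so the 2 ranges did not overlap, and no test was made of a difference chosen in this way. A further macrophage sub-cluster, of 54 cells before doublets were removed and led by *Clec4e*, *Plaur* and *Il6*, is not compared here.

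Myofibroblasts had *Igf1* at 43.4, 120.8, 100.2, 160.8, 76.8 and 199.0 CPM, and fibroblasts at 39.3, 41.2, 90.3, 35.9, 93.2 and 22.7. Myofibroblasts were the higher in 5 of 6 libraries, but the difference of 1.05 on the log2 scale (SE 0.43) did not pass the test (edgeR adjusted p = 0.16). In endothelial cells *Igf1* was lower than in mesenchymal cells in 5 of 5 libraries, with a log2 difference of -3.22 (SE 0.32, edgeR adjusted p = 9.1e-07). Urothelial cells held between 0.37 and 3.15 CPM of *Igf1*, 0.737% to 2.33% of the mesenchymal level of the same library. The summed mesenchymal markers were present there at 0.595% to 2.14% of their mesenchymal level, and the 2 ranges overlapped.

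*Igf1r*, the signalling receptor, was found in every class, with its highest level among the large classes in basal urothelial cells, at 128.4, 122.3, 97.6, 64.1, 54.6 and 80.1 CPM. Intermediate cells followed with 99.0, 91.6, 94.1, 63.0, 53.1 and 66.2, and superficial cells with 77.7, 63.6, 73.2, 54.0, 41.4 and 42.7. In each of the 6 libraries the level fell at both steps. From intermediate to superficial cells the change was -0.34 on the log2 scale (SE 0.067, edgeR adjusted p = 0.00025). The smaller step from basal to intermediate cells was -0.15 (SE 0.06, edgeR adjusted p = 0.047). That smaller step passed in only 4 of 12 alternative settings. It was lost when any 1 of healthy replicates 1 and 2 and chronic replicates 1 and 2 was left out (-0.12, -0.09, -0.17 and -0.14, edgeR adjusted p = 0.14, 0.28, 0.050 and 0.095), and with DESeq2 (adjusted p = 0.11). Macrophages, where the ligand's mRNA was highest, had a mean of 26.1 ± 10.3 CPM of *Igf1r* (SD, n = 6), below mesenchymal cells in 6 of 6 libraries (log2 difference -0.87, SE 0.24, edgeR adjusted p = 0.0079).

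*Igf2r* was level across the urothelium, with means of 42.7, 41.9 and 41.9 CPM in basal, intermediate and superficial cells and no passing step between them (log2 differences 0.04 and 0.09, edgeR adjusted p = 0.60 and 0.37). Mesenchymal cells held 53.7, 49.3, 101.6, 53.0, 70.1 and 91.6 CPM. Macrophages held 6.5, 8.2, 25.0, 7.6, 28.5 and 15.5, all below the mesenchymal values. This difference was -2.02 on the log2 scale (SE 0.28, edgeR adjusted p = 2e-05), so that in macrophages both receptors lay below mesenchymal cells. The order of ligand and receptors was not the same in all classes. Basal urothelial cells, with *Igf1* at 1.17 CPM, averaged 91.2 CPM of *Igf1r*, above the 58.8 of mesenchymal cells. Over 71 class and library sums, *Igf1* had a Pearson correlation of -0.24 with *Igf1r* and 0.24 with *Igf2r*, given as a description. Dendritic cells, without an *Igf1* UMI, averaged only 22.0 CPM of *Igf1r* and 6.04 of *Igf2r*. Myofibroblasts other than the contractile ones, with *Igf1* at 114 CPM, had the highest mean of *Igf2r* (78.4). Myofibroblasts exceeded fibroblasts in 4 of 6 libraries (0.43, SE 0.15, edgeR adjusted p = 0.042). This passed in only 6 of 13 alternative settings. With doublets kept it was 0.23 (edgeR adjusted p = 0.23), and it was also lost with DESeq2 (0.39, adjusted p = 0.16), without TMM (0.39, edgeR adjusted p = 0.059), and without healthy replicate 1 (0.40), acute replicate 1 (0.28), acute replicate 2 (0.39) or chronic replicate 1 (0.45), at edgeR adjusted p-values from 0.055 to 0.21.

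*Igfbp2* had the highest level of the binding protein genes in the urothelium, with 97.0% of its UMIs in urothelial cells. These cells were the most numerous, and they also held 86.1% of the UMIs of *Igfbp3*, 81.9% of *Igfbp5* and 80.2% of *Igf2r*. Basal cells held 1663, 2868, 1243, 2330, 3198 and 1831 CPM, intermediate cells 767, 1554, 761, 1347, 1782 and 1126, and superficial cells 285, 318, 122, 229, 349 and 250. The superficial values lay below every intermediate value, while basal and intermediate ranges overlapped between libraries but not within any library. The step from basal to intermediate cells was -0.78 on the log2 scale (SE 0.051, edgeR adjusted p = 2.2e-10) and the step from intermediate to superficial cells -2.19 (SE 0.15, edgeR adjusted p = 1.8e-06). From basal to superficial cells the level fell to between 0.0982 and 0.171 of its basal value in the same library. With cells of at least 2000 UMIs thinned to 2000, 85.5% to 99.5% of basal cells and 18.7% to 48.4% of superficial cells had an *Igfbp2* UMI (unthinned, 96.1% to 99.9% and 55.1% to 86.3%). Macrophages, in which urothelial markers were also found, had one in 7.87% to 30.2% (14.6% to 35.3% unthinned).

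*Igfbp7* fell over the same layers, from 475, 873, 408, 698, 658 and 401 CPM in basal cells to 273, 520, 261, 482, 493 and 340 in intermediate and 165, 197, 121, 214, 153 and 147 in superficial cells. Its steps were -0.51 (SE 0.062, edgeR adjusted p = 3.3e-06) and -1.16 on the log2 scale (SE 0.10, edgeR adjusted p = 7.1e-07), each in 6 of 6 libraries. *Igfbp3*, the main IGF carrier of blood plasma, followed the same order. Basal cells held 45.3, 76.4, 64.3, 45.8, 32.6 and 52.5 CPM of *Igfbp3*, all above the intermediate values of 11.0, 21.2, 23.4, 12.7, 15.6 and 19.5. Superficial cells held between 2.8 and 23.4. The steps were -1.57 (SE 0.10, edgeR adjusted p = 4.9e-09) and -0.83 on the log2 scale (SE 0.24, edgeR adjusted p = 0.017), the second lower in 5 of 6 libraries. The second step was lost without healthy replicate 1 (-0.72, edgeR adjusted p = 0.067) and without acute replicate 2 (-0.75, edgeR adjusted p = 0.054).

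One intermediate sub-cluster of 642 cells, led by *Krt4*, *Cyp2f2* and *Nccrp1*, stood apart with 127 ± 68.9 CPM of *Igfbp3* (SD, n = 5). The other intermediate sub-clusters had means between 6.26 and 25.8. This sub-cluster was picked out after its values had been seen, and *Igfbp3* was not among the genes used to form it. Before doublets were removed it held 678 cells, of which 420 came from chronic replicate 1.

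*Igfbp5*, which binds to extracellular matrix as well as to IGFs, showed the same descent at a level that differed widely between libraries. Basal cells held 121.6, 18.5, 61.2, 42.9, 13.8 and 23.0 CPM, intermediate cells 52.8, 12.6, 32.2, 17.6, 10.6 and 15.9, and superficial cells 46.8, 7.6, 10.3, 6.1, 4.7 and 4.4. Healthy replicate 1 was the highest library in all 3 layers, well above healthy replicate 2. Within libraries the level fell at both steps in 6 of 6 (log2 -0.84, SE 0.11, edgeR adjusted p = 1.6e-05, and -1.04, SE 0.22, edgeR adjusted p = 0.003).

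**Figure D2:**
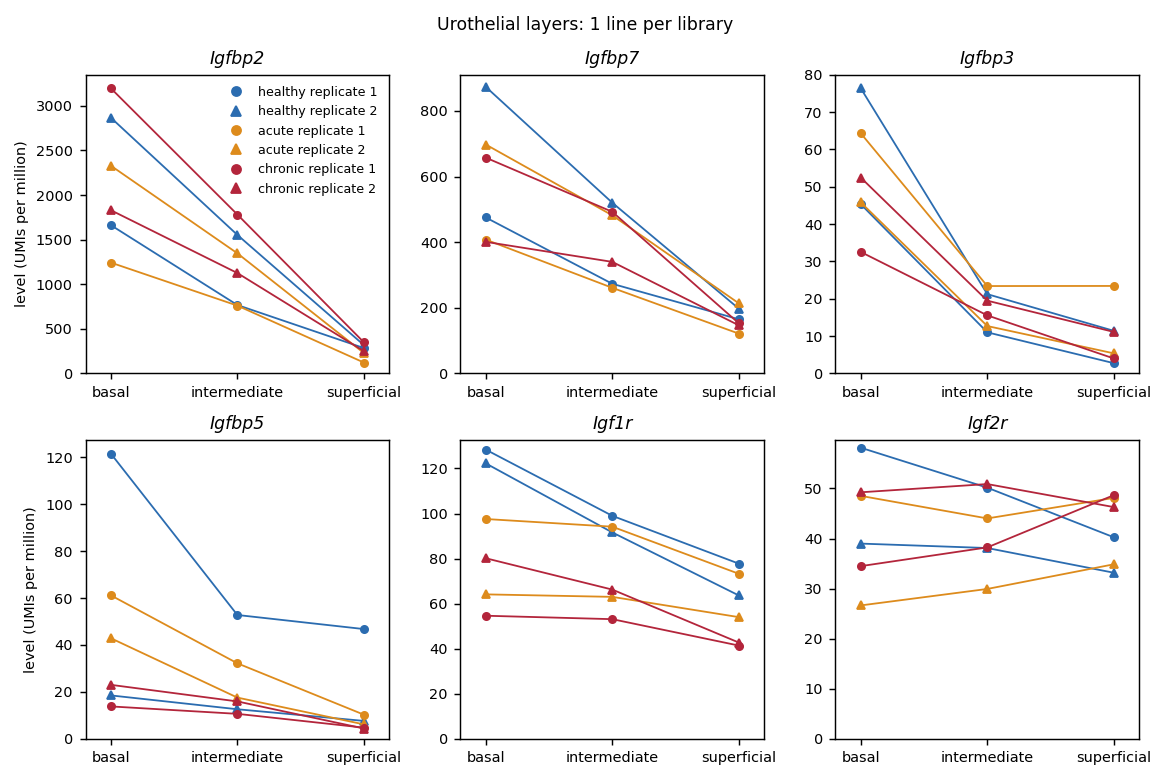
Levels of 6 members (CPM of the class) in basal, intermediate and superficial urothelial cells, 1 line per library, coloured by group with a circle for replicate 1 and a triangle for replicate 2. *Igfbp2*, *Igfbp7*, *Igfbp3*, *Igfbp5* and *Igf1r* descended from basal to superficial cells, while *Igf2r* stayed near 42 CPM on average in each layer.

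From basal to intermediate cells, 6 of the 9 members passed the test, 5 lower (*Igfbp2*, *Igfbp3*, *Igfbp5*, *Igfbp7* and, in few of the other settings, *Igf1r*) and 1 higher (*Igfbp6*), where 48.7% of all genes tested passed, 25.7% lower and 23% higher. The *Igfbp6* step was 0.28 on the log2 scale (SE 0.084, edgeR adjusted p = 0.0081), and was 0.23 without chronic replicate 1 (edgeR adjusted p = 0.061). Urothelial levels of *Igfbp6* were only 9.2 to 48.9 CPM, 0.942% to 3.41% of the mesenchymal level (median 2.24%). Mesenchymal markers stood at 0.595% to 2.14% (median 1.065%) in the same cells, and their part was not tested. From intermediate to superficial cells, 5 of 9 passed, the same 5 genes that fell at the first step and all lower, against 54.1% of all genes tested, 28.6% lower and 25.5% higher. The median member change was -0.15 and -0.34 on the log2 scale at the 2 steps, beside -0.01 and -0.02 over all genes tested. The intermediate class was defined by low basal and superficial marker sums, and within it a sub-cluster of 3275 cells had *Upk2* and *Upk3a*, and one of 2600 cells *Krt5* and *Krt15*, among their leading genes. With both left out, *Igf1r* no longer passed at the first step (-0.12, edgeR adjusted p = 0.12), and the other 5 members called there and all 5 called at the second step still passed. When the libraries were clustered without integration, only 1 library had a basal class, so the first step could not be compared in that setting. Basal cells had 44.4% to 61.6% and superficial cells 157% to 206% of the summed urothelial markers of all urothelial cells, and superficial cells had the most UMIs per cell of these 3 layers.

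The promoters of the binding protein genes that fell over the urothelial layers are shown because these genes moved together, followed by those of *Igfbp4* and *Igfbp6*, which were high in fibroblasts. Each runs from 250 bases before to 50 after the RefSeq start site (GRCm38.p6, 5′ to 3′ on the gene's strand). Capitals mark motif matches on either strand. The TATA box was searched for as TATAAA. For the GC box the letters were GGGCGG. The AP-1 motif was written as TGANTCA, with N for any base.

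Igfbp2 (chr1:72824230-72824529, plus strand): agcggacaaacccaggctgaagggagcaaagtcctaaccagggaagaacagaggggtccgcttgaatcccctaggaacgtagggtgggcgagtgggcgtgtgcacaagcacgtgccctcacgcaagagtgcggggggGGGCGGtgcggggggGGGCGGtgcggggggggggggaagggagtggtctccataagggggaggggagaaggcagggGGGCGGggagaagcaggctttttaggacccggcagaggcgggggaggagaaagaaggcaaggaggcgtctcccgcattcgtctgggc
Igfbp7 (chr5:77407996-77408295, minus strand): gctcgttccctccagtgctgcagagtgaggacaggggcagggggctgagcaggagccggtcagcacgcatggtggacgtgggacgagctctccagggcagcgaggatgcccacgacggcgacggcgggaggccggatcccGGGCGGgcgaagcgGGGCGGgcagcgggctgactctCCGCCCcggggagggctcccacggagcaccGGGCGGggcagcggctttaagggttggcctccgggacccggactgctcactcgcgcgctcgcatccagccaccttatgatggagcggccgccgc
Igfbp3 (chr11:7213874-7214173, minus strand): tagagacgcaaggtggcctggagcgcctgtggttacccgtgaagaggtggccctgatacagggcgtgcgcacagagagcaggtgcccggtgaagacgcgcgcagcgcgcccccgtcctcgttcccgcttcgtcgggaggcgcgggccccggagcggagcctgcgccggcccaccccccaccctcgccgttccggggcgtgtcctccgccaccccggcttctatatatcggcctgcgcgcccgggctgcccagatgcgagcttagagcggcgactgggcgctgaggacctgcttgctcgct
Igfbp5 (chr1:72874816-72875115, minus strand): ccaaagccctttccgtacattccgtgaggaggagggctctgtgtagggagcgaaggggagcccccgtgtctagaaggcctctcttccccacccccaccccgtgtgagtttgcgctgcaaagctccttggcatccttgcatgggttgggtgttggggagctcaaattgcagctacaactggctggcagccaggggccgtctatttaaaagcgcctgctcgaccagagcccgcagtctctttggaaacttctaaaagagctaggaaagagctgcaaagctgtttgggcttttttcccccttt
Igfbp4 (chr11:99040994-99041293, plus strand): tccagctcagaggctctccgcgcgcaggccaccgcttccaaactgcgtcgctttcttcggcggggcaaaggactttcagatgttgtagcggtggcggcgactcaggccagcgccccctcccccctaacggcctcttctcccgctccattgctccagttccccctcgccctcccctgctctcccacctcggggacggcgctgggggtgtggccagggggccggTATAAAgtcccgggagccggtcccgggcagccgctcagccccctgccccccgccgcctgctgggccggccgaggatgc
Igfbp6 (chr15:102143936-102144235, plus strand): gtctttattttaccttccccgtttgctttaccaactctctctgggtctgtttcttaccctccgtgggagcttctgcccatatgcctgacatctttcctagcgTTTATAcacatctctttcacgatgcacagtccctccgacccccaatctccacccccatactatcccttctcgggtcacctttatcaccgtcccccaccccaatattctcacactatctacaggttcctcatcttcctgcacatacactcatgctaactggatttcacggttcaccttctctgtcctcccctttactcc

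Of these windows, that of *Igfbp2* held GGGCGG at 3 places and that of *Igfbp7* at 4, whereas the windows of *Igfbp3* and *Igfbp5* held none of the 3 motifs. GGGCGG was present in 35.7% of 32851 RefSeq promoters of this length. TATAAA, present in 13.6%, was found 28 bases before the start site in *Igfbp4* and 148 bases before it in *Igfbp6*. TGANTCA was present in 7.81% of promoters and in none of these 6 windows. The 4 genes that fell together therefore did not share any of the 3 motifs in these windows. *Igfbp2* and *Igfbp5* lie next to each other on chromosome 1 on opposite strands, at 72824503 to 72852474 and 72857932 to 72874884 (GRCm38), and both fell over the layers. *Igfbp2* has a second RefSeq start site, whose window is not shown and held TGANTCA once, 39 bases before that start site, and neither of the other motifs.

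Outside the urothelium, *Igfbp2* levels moved with the urothelial markers found in the same cells, whose source (free RNA, remaining doublets or mixed cells) was not tested. Over 47 sums of non-urothelial classes and libraries, *Igfbp2* as a percent of its urothelial level and the summed urothelial markers as a percent of theirs had a Pearson correlation of 0.789, given as a description because the sums share libraries. The ratio of the 2 percents had a median of 0.822 and ran from 0.213 to 2.76. In fibroblasts *Igfbp2* was 57.6, 172.1, 70.6, 89.2, 209.7 and 671.0 CPM, highest in chronic replicate 2, the library with the most urothelial markers in that class. Macrophages had 0.72 more than mesenchymal cells on the log2 scale (SE 0.21, edgeR adjusted p = 0.011) and endothelial cells 1.14 more (SE 0.23, edgeR adjusted p = 0.0014). The first was lost with clustering without integration (0.60, edgeR adjusted p = 0.24), without TMM (0.41, edgeR adjusted p = 0.11) and with mixed sub-clusters kept (0.38, edgeR adjusted p = 0.098), and the second was 0.36 with doublets kept (edgeR adjusted p = 0.089). The urothelial markers stood at 7.37% to 33.0% of their urothelial level in macrophages, 13.4% to 73.9% in endothelial cells and 6.54% to 31.7% in mesenchymal cells. Their part in these 2 differences was not tested.

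**Figure D3:**
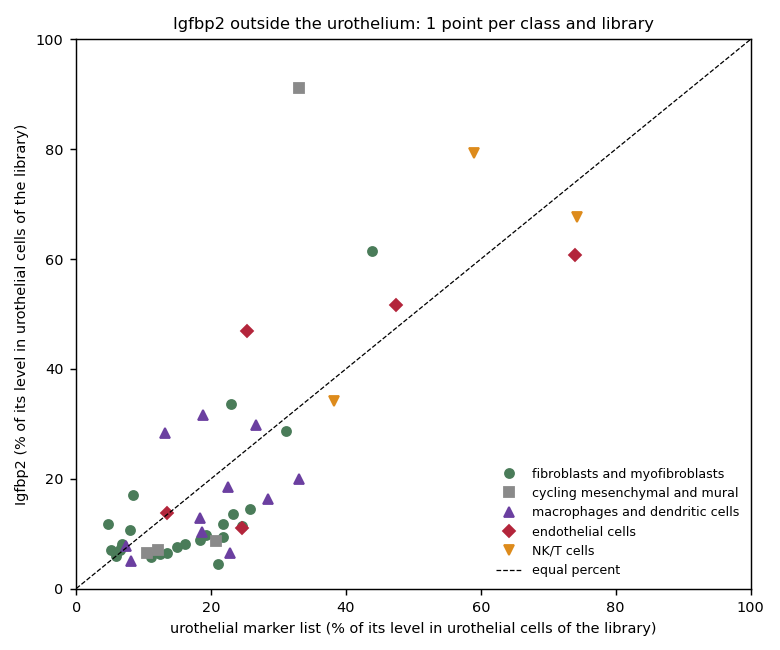
*Igfbp2* (vertical axis) against the summed urothelial marker list (horizontal axis) in 47 non-urothelial sums, each as a percent of its level in urothelial cells of the same library, with a dashed line of equal percents. Most points lie between 0 and 35% on both axes. NK/T cells had the most urothelial markers (median 59.05%) and *Igfbp2* (median 67.7%), and the 2 mural sums held 8.65% and 91.1% of the urothelial *Igfbp2* level.

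*Igfbp6*, whose product prefers IGF2 over IGF1, was highest in fibroblasts. They held 1841, 2132, 1363, 1844, 1761 and 637 CPM and myofibroblasts 578, 1070.5, 359, 531, 778 and 258. The lowest fibroblast value came from the 49 fibroblasts of chronic replicate 2, in which the mesenchymal markers were also low. Myofibroblasts were lower in 6 of 6 libraries, by -1.45 on the log2 scale (SE 0.13, edgeR adjusted p = 8.9e-08), or 0.367 of the fibroblast level. All 3 fibroblast types shared the high level, with means of 1879, 1616 and 1731 CPM in *Pi16*, *Scara5* and *Inmt* fibroblasts. Macrophages had 0.636% to 6.82% and endothelial cells 5.84% to 10.9% of the mesenchymal level, where mesenchymal markers stood at 2.62% to 7.90% and 9.58% to 18.0%.

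*Igfbp4*, an inhibitor of IGF1 until it is cut by the protease PAPP-A, had its highest mean levels in fibroblasts, though in healthy replicate 1 endothelial cells (816.3 CPM) lay above them. Fibroblasts held 790, 1142, 945.5, 826, 1005 and 552 CPM, and myofibroblasts 182, 634, 208, 132, 451 and 258. The difference was -1.67 on the log2 scale (SE 0.27, edgeR adjusted p = 0.0033), with myofibroblasts lower in 6 of 6 libraries. Macrophages held 376, 583, 493, 351, 314 and 254 CPM, below fibroblasts in 6 of 6 libraries (0.312 to 0.521 of their level) and near the means of endothelial (354), other myofibroblast (342) and mural cells (312). The macrophage levels were below those of mesenchymal cells as a whole in 5 of 6 libraries. The fitted difference was not beyond the spread (log2 -0.20, SE 0.22, edgeR adjusted p = 0.48). Dendritic cells averaged 24.9 ± 10.7 (SD, n = 5), and macrophages exceeded them 8.64 to 22.1 times in 5 of 5 libraries. Like *Igf1*, *Igfbp4* was higher in the macrophage sub-cluster led by *Folr2* and *Lyve1*, at 631 ± 69.7 (SD, n = 5) against 174 ± 43.4 (SD, n = 4) in the sub-cluster led by *Cxcl2*. With cells of at least 2000 UMIs thinned to 2000, 31.6% to 63.3% of macrophages and 0% to 6.45% of dendritic cells had an *Igfbp4* UMI (38.6% to 77.1% and 2.94% to 9.09% unthinned). Urothelial cells held 6.7 to 16.5 CPM.

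*Igfbp5* differed between fibroblast types. *Pi16* fibroblasts held 45.7, 92.5, 35.4, 122.2 and 111.3 CPM in the 5 libraries with enough of them, chronic replicate 2 being without. *Inmt* fibroblasts held 14.9, 9.9, 8.8 and 0 in healthy replicates 1 and 2, acute replicate 2 and chronic replicate 1, from 63, 148, 356 and 34 cells. *Pi16* fibroblasts were higher in 4 of these 4 libraries, by 3.07 to 13.9 times in the 3 where *Inmt* fibroblasts had a UMI. These ratios rest on few *Inmt* UMIs. *Scara5* fibroblasts, the most numerous type, held 33.9, 17.5, 45.8, 30.5, 95.3 and 95.0, overlapping the *Pi16* values and lower than them in 4 of 5 libraries. Over all fibroblasts the values were 38.5, 48.2, 39.5, 37.1, 98.1 and 85.3. In myofibroblasts they were 4.8, 28.9, 3.1, 10.4, 5.1 and 25.2, entirely below the fibroblast range. This difference was -2.01 on the log2 scale (SE 0.30, edgeR adjusted p = 0.00091).

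*Igfbp7* ran the other way. Myofibroblasts held 4669, 4073, 3345, 5319, 2616 and 3024 CPM and fibroblasts 3684, 3923.5, 1690, 3368, 2344 and 1257, so that myofibroblasts were higher in 6 of 6 libraries (0.61 on the log2 scale, SE 0.16, edgeR adjusted p = 0.011). With doublets kept the difference was 0.17 (edgeR adjusted p = 0.60). Contractile myofibroblasts, marked by *Acta2* and *Actg2*, held 5625, 4702 and 5013 in the 3 libraries with enough of them. Vessel wall cells reached levels as high. Mural cells held 4814 and 10574 in the acute libraries, and endothelial cells 8541, 4733, 7837, 3428 and 1736 in the 5 libraries other than healthy replicate 2, a range that includes the contractile values. Macrophages held 74.5 to 299.8, 1.75% to 9.40% of the mesenchymal level (log2 difference -4.18, SE 0.27, edgeR adjusted p = 4.2e-09), where mesenchymal markers stood at 2.62% to 7.90%.

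**Figure D4:**
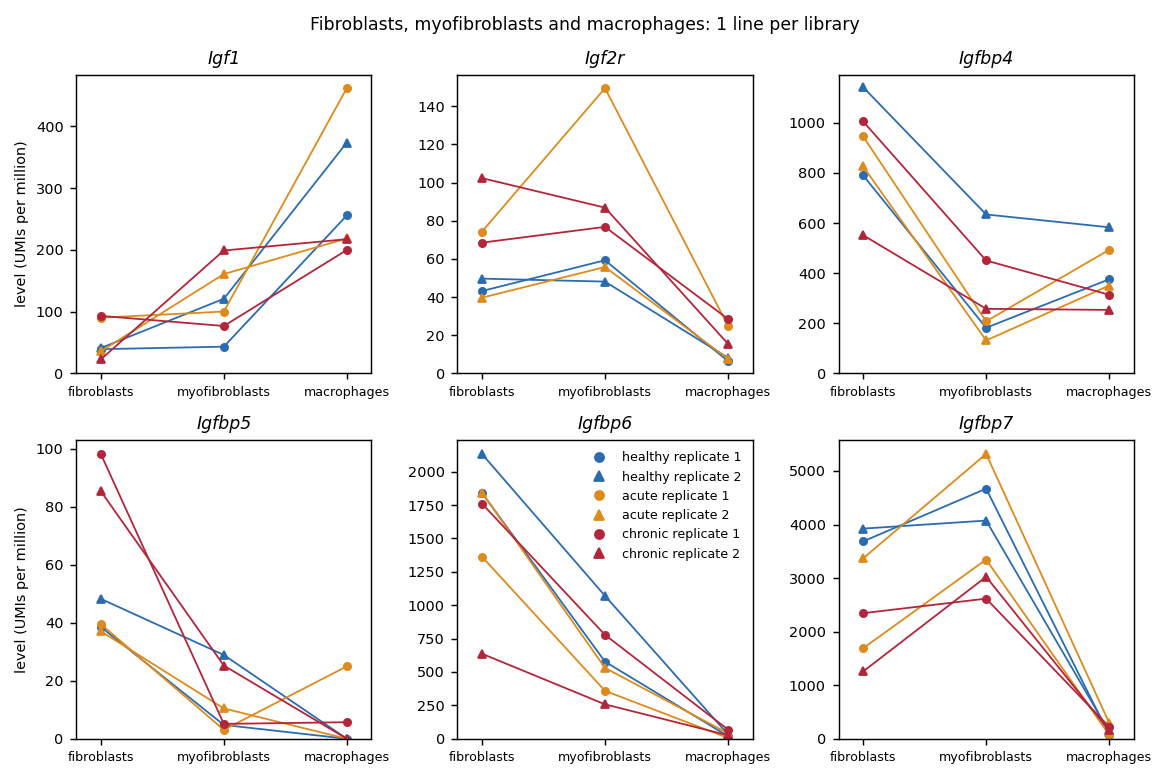
Levels of 6 members (CPM of the class) in fibroblasts, myofibroblasts and macrophages, 1 line per library, coloured by group with a circle for replicate 1 and a triangle for replicate 2. *Igf1* was highest in macrophages, *Igfbp4*, *Igfbp5* and *Igfbp6* were higher in fibroblasts than in myofibroblasts in every library, and *Igfbp7* was higher in myofibroblasts.

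Between myofibroblasts and fibroblasts, 5 of the 8 members that passed the low-count filter were called, 2 higher in myofibroblasts (*Igf2r*, with the losses given above, and *Igfbp7*) and 3 lower (*Igfbp4*, *Igfbp5* and *Igfbp6*), where 20.7% of all genes tested were called, 11.4% higher and 9.3% lower. The median log2 difference was 0.02 over the 8 members and 0.01 over all genes tested. Without chronic replicate 2 all 5 were still called, with log2 differences of 0.46, 0.44, -1.81, -2.05 and -1.51 in the order just given. *Igfbp3* did not pass the filter, and *Igf1r* and *Igfbp2* did not pass the test (log2 -0.03 and 0.07). Macrophages against mesenchymal cells gave 6 of 7 members called, 2 higher (*Igf1* and *Igfbp2*) and 4 lower (*Igf1r*, *Igf2r*, *Igfbp6* and *Igfbp7*), where 45.9% of all genes tested were called, 21.4% higher and 24.5% lower. *Igfbp3* and *Igfbp5* did not pass that filter. The median member difference there was -0.87, against -0.05 over all genes tested.

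*Igfbp3* was far higher in endothelial than in mesenchymal cells. It reached 797.6, 176.9, 493.5, 55.5 and 59.3 CPM in endothelial cells of healthy replicate 1, acute replicates 1 and 2 and chronic replicates 1 and 2, where mesenchymal cells held 1.2 to 8.4. The lowest endothelial value lay above the highest mesenchymal one. The chronic values, from only 4 and 7 *Igfbp3* UMIs, fell inside the basal urothelial range of 32.6 to 76.4, in cells whose urothelial markers stood at 47.4% and 73.9% of their urothelial level, and the part of these was not tested. The difference was 7.01 on the log2 scale (SE 0.98, edgeR adjusted p = 0.0029), with per-library ratios from 10.8 to 375. Endothelial markers were all but absent from mesenchymal cells, at 0.174% to 0.84% of their endothelial level. Endothelial against mesenchymal cells gave 4 of 9 members called, 2 higher (*Igfbp2* and *Igfbp3*) and 2 lower (*Igf1* and *Igfbp6*), where 35.8% of all genes tested were called, 19.1% higher and 16.7% lower. The median member difference was -0.51, against 0.06 over all genes tested, and *Igfbp7*, at 0.48 (SE 0.20, edgeR adjusted p = 0.081), did not pass.

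Ordering the 15 classes by mean level gave 126 pairs of neighbours over the 9 members. A pair with 6 shared libraries cannot give a p below 0.03125 (exact paired permutation test, two-sided), and only 26 pairs had that many, so no pair could pass after adjustment over the 126 and the test does not say which neighbours differ. The 3 pairs at that smallest p, higher in 6 of 6 libraries, were *Igfbp2* and *Igfbp7* in basal over intermediate cells, both called by edgeR above, and *Igfbp3* in basal over cycling urothelial cells. For *Igf1* the order ran from macrophages through contractile and other myofibroblasts (138 and 114) to *Scara5* and *Pi16* fibroblasts (61.8 and 53.8), with endothelial cells at 11.9 and all urothelial classes below 1.4. At the head of the *Igf1r* order, cycling mesenchymal cells (91.8, from 2 libraries) and basal cells (91.2) were followed by mural cells (82.6) and intermediate cells (77.8). Other myofibroblasts (78.4) led for *Igf2r*, before cycling mesenchymal cells (72.3) and *Scara5* fibroblasts (60.9). *Igfbp2* ran from basal (2189) and intermediate cells (1223) to NK/T (757) and cycling urothelial cells (755), the NK/T class carrying urothelial markers at 38.3% to 74.3%.

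The genes most like each member were sought over all 71 class and library sums. The measure was the Pearson correlation of log2(level + 1) over these sums, which share libraries and classes, and it is given as a description. *Igfbp2* was most like *Krt5* (0.96), the basal keratin, and *Gsto1* (0.95). *Igfbp6* was most like *Dcn* (0.98), decorin of the fibroblast matrix, and *Fbln1* (0.98), and *Igfbp4* most like *Pmp22* (0.94) and *Tnfsf12* (0.93). *Igfbp7* came closest to *Ccser2* (0.94) and *Ehd2* (0.93), *Igf1* to *Tslp* (0.88) and *Rgl1* (0.85), and *Igf2r* to *Rbfox2* (0.85) and *Oxr1* (0.84). The likeness was looser for *Igf1r*, with *Mpp2* (0.76) and *Efcab14* (0.73), and for *Igfbp3*, with *Tjp1* (0.75) and *Sox7* (0.74), an endothelial transcription factor.

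Injury was compared with health in 7 classes, giving 14 comparisons and 110 tests of members. The 3 tests called were all in chronic endothelial cells, where the healthy group was 1 library of 53 cells and letting in the second ended all 3 calls, and 19 had an unadjusted p under 0.05. For an unadjusted p under 0.05, chronic fibroblasts had 3 of 9 members beside 781 of 10926 genes tested. Chronic endothelial cells had 4 of 8 beside 672 of 5257, and chronic macrophages 1 of 4 beside 203 of 3495. Chronic basal cells had 2 of 8 beside 487 of 11075, and chronic intermediate cells 2 of 9 beside 648 of 13301. Chronic myofibroblasts had 1 of 8 beside 611 of 8479. Chronic superficial cells had 2 of 9 beside 638 of 11356, and acute fibroblasts 0 of 9 beside 336 of 10926. Acute basal cells had 0 of 8 beside 285 of 11075, and acute intermediate cells 1 of 9 beside 341 of 13301. Acute superficial cells had 2 of 9 beside 608 of 11356, and acute myofibroblasts 0 of 8 beside 206 of 8479. Acute macrophages had 0 of 4 beside 72 of 3495, and acute endothelial cells 1 of 8 beside 157 of 5257. Over all genes the share called was 0% in 9 of the comparisons, those of the 3 urothelial layers and of macrophages in both arms and of myofibroblasts in the chronic arm. It was 0.00915% in acute fibroblasts, 0.0118% in acute myofibroblasts, 0.114% in acute endothelial cells (0.038% higher and 0.0761% lower), 0.0183% in chronic fibroblasts and 1.26% in chronic endothelial cells (0.552% higher and 0.704% lower). DESeq2 likewise called no member outside chronic endothelial cells. In simulated counts most changes of 1 on the log2 scale were missed, so a missing call does not show that a level stayed the same.

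**Figure D5:**
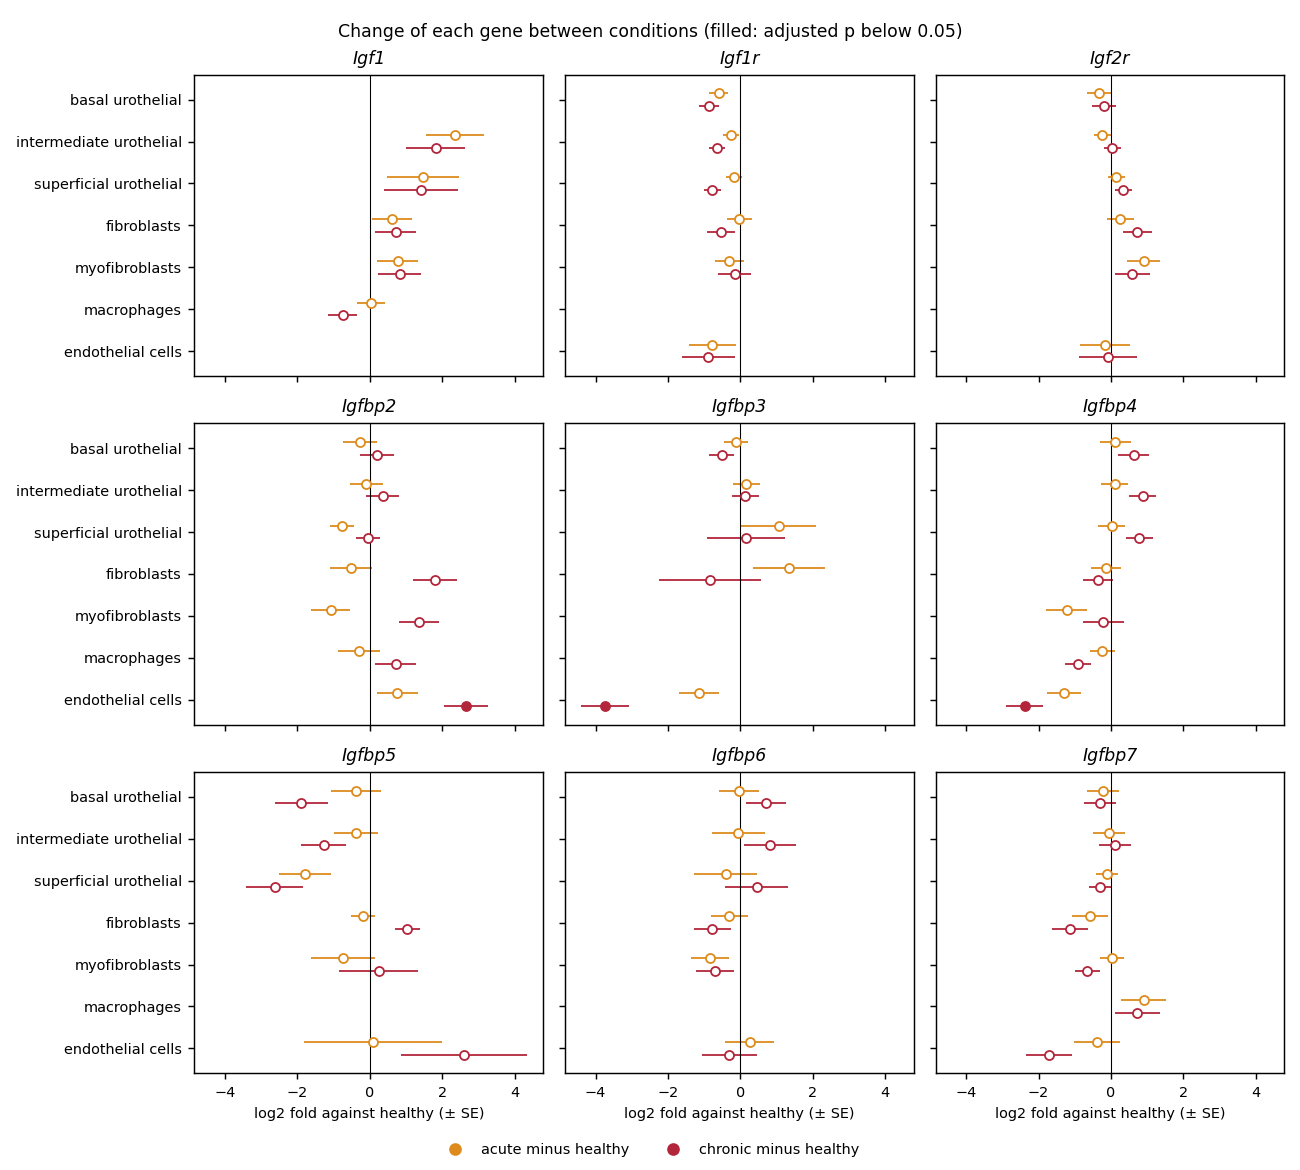
Fitted log2 change of each member from healthy to acute and to chronic bladders in 7 cell classes, each point with its standard error as a bar. Of the 110 changes, the 3 called at an adjusted p below 0.05 were all in chronic endothelial cells (*Igfbp2* higher, *Igfbp3* and *Igfbp4* lower), which were set against 1 healthy library.

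In chronic endothelial cells, *Igfbp3* was at 55.5 and 59.3 CPM and *Igfbp4* at 194.3 and 118.6, against 797.6 and 816.3 in the only healthy library with enough endothelial cells. The changes were -3.74 (SE 0.67, edgeR adjusted p = 0.016) and -2.39 on the log2 scale (SE 0.51, edgeR adjusted p = 0.027). *Igfbp2* stood at 860.5 and 601.4 against 116.6 (2.66, SE 0.60, edgeR adjusted p = 0.039). These calls rest on 53 healthy cells of 1 library and on 27 and 26 chronic cells, and the single healthy library was assumed to vary like the others. Healthy replicate 2 had 16 endothelial cells, with *Igfbp3* at 98.8, *Igfbp4* at 336.0 and *Igfbp2* at 375.6. When it was let in, all 3 calls were lost (log2 -3.03, -1.93 and 1.76, edgeR adjusted p = 0.31, 0.26 and 0.42). Without chronic replicate 1 none of the 3 passed either (-3.68, -2.72 and 2.42, edgeR adjusted p = 0.24, 0.22 and 0.24), and without chronic replicate 2 *Igfbp4* did not (-1.99, edgeR adjusted p = 0.071). The endothelial markers summed to 6535, 4705, 3865, 5867, 4108 and 1745 CPM over the 6 libraries, and urothelial markers in the same cells to 2523, 10576, 5366, 4204, 12089 and 14992, highest in the chronic libraries. The part of either in the 3 changes was not tested. *Igfbp7*, at 8541 in healthy and 3428 and 1736 in chronic endothelial cells, changed by -1.71 (SE 0.63, edgeR adjusted p = 0.23).

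*Igf1r* was lower in both chronic libraries than in both healthy libraries in all 3 urothelial layers, as the values above show. The changes were -0.87 (SE 0.27) in basal, -0.65 (SE 0.22) in intermediate and -0.78 (SE 0.23) in superficial cells on the log2 scale. Their unadjusted edgeR p-values were 0.011, 0.019 and 0.0065, and the adjusted p-values of 0.96, 0.97 and 0.74 did not pass. The acute libraries were called in none of the layers. The 3 layers come from the same libraries and are not separate replicates.

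In chronic fibroblasts, *Igfbp5* stood at 98.1 and 85.3 CPM, above the healthy 38.5 and 48.2 and the acute 39.5 and 37.1 (log2 change 1.04, SE 0.34, edgeR adjusted p = 0.64). *Igfbp2* in the same cells changed by 1.79 (edgeR adjusted p = 0.64) and *Igfbp7* by -1.14 (edgeR adjusted p = 0.70), in libraries that differed in urothelial markers as described above. In the urothelium *Igfbp5* pointed the opposite way, with chronic minus healthy changes of -1.89 in basal and -2.63 in superficial cells (edgeR adjusted p = 0.995 and 0.81). Healthy replicate 1 alone set the height of the healthy group there, at 121.6 against 18.5 in basal cells.

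In mesenchymal cells *Igf1* was higher in all 4 injured libraries than in both healthy ones, with means of 51.2 in healthy, 116 in acute and 114 CPM in chronic libraries. This separation held in neither class alone, and the mix of classes differed between libraries, from 49 fibroblasts beside 104 myofibroblasts in chronic replicate 2 to 1180 beside 371 in healthy replicate 2. Fibroblasts of acute replicate 2 (35.9) and chronic replicate 2 (22.7) lay below both healthy values, and myofibroblasts of healthy replicate 2 (120.8) above acute replicate 1 (100.2) and chronic replicate 1 (76.8). Tested in the 2 main classes of these cells, the acute and chronic log2 differences from healthy were 0.77 (SE 0.56) and 0.82 (SE 0.59) in myofibroblasts and 0.60 (SE 0.55) and 0.71 (SE 0.57) in fibroblasts, with no call (edgeR adjusted p between 0.85 and 1.00). In macrophages, *Igf1* averaged 315 in healthy, 340 in acute and 209 CPM in chronic libraries, with both chronic values below all healthy and acute ones and no call (chronic change -0.75, SE 0.40, edgeR adjusted p = 0.85). The *Igfbp4* change in chronic macrophages was -0.91 (SE 0.36, edgeR adjusted p = 0.85), its 2 chronic values of 314 and 254 lying below all others. The mix of macrophage sub-clusters also differed between libraries. Before doublets were removed, the *Folr2* sub-cluster had 29, 68, 29, 51, 35 and 16 cells and the *Cxcl2* sub-cluster 59, 15, 10, 74, 28 and 35. The part of this mix in the 2 macrophage changes was not tested. The remaining tests with an unadjusted p under 0.05 were *Igf1* in acute intermediate cells (2.35, at under 4 CPM), *Igfbp2* and *Igfbp5* in acute superficial cells (-0.78 and -1.79), *Igfbp4* in acute endothelial cells (-1.31) and chronic intermediate cells (0.87), and *Igfbp2* in chronic myofibroblasts (1.37). None passed after adjustment.

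The other genes of the pathway were taken from a list of 36, of which 30 were in all tables. From basal to intermediate cells 1 of the 23 tested rose and 12 fell, where 23% of all genes tested rose and 25.7% fell. From intermediate to superficial cells 2 of 23 rose and 15 fell, where 25.5% and 28.6% of all genes tested did. The medians were -0.16 and -0.36 on the log2 scale, beside the same -0.01 and -0.02 over all genes tested. The growth hormone receptor gene *Ghr* fell at both steps (-0.88 and -1.25), as did the ligand gene *Igf2* (-0.78 and -1.46, from a basal mean of 7.99 CPM), the receptor substrates *Irs1* (-1.83 and -0.93) and *Irs2* (-0.48 and -1.08), and *Adamts1* (-1.31 and -1.81), a metalloprotease. The transcription factor gene *Foxo1* (-0.59), the protease gene *Htra1* (-0.29) and the kinase gene *Akt1* (-0.13) fell at the first step, while *Igf2bp3* (-1.28 and -1.11), *Shc1* (-0.26 and -0.32) and *Pik3ca* (-0.18 and -0.36) fell at both. *Igf2bp2* (-0.99), *Pik3r1* (-0.51), *Insr* (-0.38), *Lrp1* (-0.38) and *Tsc2* (-0.22) fell at the second. Leaving out any 1 library but acute replicate 2 ended the *Akt1* call (-0.14 to -0.11), and any but chronic replicate 1 the first *Pik3ca* call (-0.19 to -0.14). The *Tsc2* call was lost without replicate 2 of any group (-0.20 to -0.16) and the *Htra1* call without healthy replicate 2 (-0.20). *Socs2*, a feedback inhibitor of growth hormone signalling, rose from intermediate to superficial cells (1.25), and so did *Foxo3* (0.22). The second *Irs1* step was lost without acute replicate 1 (-0.58), acute replicate 2 (-1.09), healthy replicate 2 (-0.84) or chronic replicate 2 (-0.89), and the *Foxo3* step without chronic replicate 1 (0.20). *Igf2bp1*, which encodes an mRNA-binding protein, rose from basal to intermediate cells (1.04). The list also held *Pdk1*, which encodes a pyruvate dehydrogenase kinase outside the cascade and fell from intermediate to superficial cells (-0.88).

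In the stroma, 1 of 22 pathway genes was higher in myofibroblasts than in fibroblasts, *Socs2* (0.88), against 11.4% of all genes tested, and 3 were lower, against 9.3%, the adaptor gene *Grb10* (-2.16), *Stc2* (-1.36), whose product inhibits PAPP-A, and *Akt2* (-0.34), with a median of 0.11 beside 0.01 over all genes tested. Against mesenchymal cells, macrophages had 0 of 13 higher (21.4% of all genes tested) and 5 lower (24.5%), namely *Htra1* (-4.80), *Ghr* (-4.10), *Adamts1* (-3.98), *Lrp1* (-1.50) and *Shc1* (-1.12). *Ghr* averaged 3.36 CPM in macrophages and 58.9 in mesenchymal cells. Endothelial cells had 4 of 18 higher, close to the 19.1% of all genes tested, led by the insulin receptor gene *Insr* (3.28, from a mesenchymal mean of 14.2 to 136 CPM) and *Socs2* (2.87), with *Foxo1* (1.83) and *Adamts1* (1.37). Another 5 were lower there (16.7% of all genes tested), *Htra1* (-3.67), *Lrp1* (-3.22), *Pappa* (-2.49), *Akt2* (-1.21) and *Ghr* (-0.74). Without healthy replicate 1, acute replicate 1 or chronic replicate 1, both *Adamts1* (1.16, 1.38 and 1.47) and *Ghr* (-0.87, -0.79 and -0.63) were lost, as was *Ghr* without acute replicate 2 (-0.87). The *Akt2* difference between myofibroblasts and fibroblasts was lost without healthy replicate 1 (-0.31), healthy replicate 2 (-0.36), acute replicate 2 (-0.33) or chronic replicate 1 (-0.33), and with DESeq2 neither *Akt2*, *Stc2* nor *Socs2* passed there. *Pappa*, which encodes the protease that cuts IGFBP4, averaged 51.5 CPM in myofibroblasts and 30.2 in fibroblasts, and was not found in macrophages. Under injury, 1 pathway gene was called in 14 comparisons, *Stc1*, a further PAPP-A inhibitor, lower in chronic endothelial cells (-3.76, edgeR adjusted p = 0.046), against a healthy group of 1 library of 53 cells. It was lost without chronic replicate 1 or 2 (-4.05 and -3.35, edgeR adjusted p = 0.25 and 0.17), and no value was obtained with the second healthy library let in.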

How the data were processed

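Mucosal cells were dissociated and sequenced by 10x droplet sequencing, and the authors mapped the reads to mm10 with Cell Ranger, per the submitters' processing notes. The deposited tables hold raw UMI counts per gene and cell, 1 table per library, after a filter by the authors (the highest mitochondrial share was close to 10%). Here, cells with more than 500 genes and under 10% mitochondrial UMIs were kept, and doublets were called at 0.8% per 1000 cells. The libraries were integrated (Seurat 5.3.0, 3000 genes, 50 dimensions) and clustered (scanpy 1.11.5, Leiden resolution 0.8) with these doublets still in. Called doublets were then removed, and clusters rich in them were set aside. The 9 members and the listed pathway genes were kept out of the integration genes and of the marker lists. Mitochondrial and ribosomal genes (13 and 90) were left out of the sums. Sub-clusters that led with another class's markers were set aside as mixed, by a rule set after the sub-clusters had been seen. The members, gene lists and marker lists were chosen with earlier results of these data known. The named genes were all members, every other pathway gene with an adjusted p below 0.05, and the 2 genes most like each member (some of these are not reported here).

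UMIs were summed per library and class over at least 20 cells and tested with edgeR 4.0.16 (quasi-likelihood, TMM, filterByExpr). Groups were compared without a replicate block, over all libraries at once, and classes with library as a block. Depth was 54604109 to 111985678 UMIs per library, and every UMI limit covers counting error only. One table ended in an incomplete line, which was dropped. The alternatives were DESeq2 1.42.0, no TMM, no low-count filter, stricter cell filters, doublets kept, no integration, a replicate block and leaving out each library. Added after seeing the data were mixed sub-clusters kept, at least 10 cells per class, intermediate sub-clusters with layer markers left out, and tests of whether a change differed between classes. The scripts were tested on counts simulated for acute against healthy. Changes of 1 on the log2 scale were called in 15% of cases in intermediate cells, 5% in fibroblasts, 4% in myofibroblasts and 4% in macrophages. Changes of 2 were called in 70%, 47%, 57% and 50%, in the same order. Promoter sequences are from RefSeq (GRCm38.p6, all 9 members matched), and gene positions from the GRCm38 annotation. Protein sequences were not used here.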

Additional observations from a re-analysis of the deposited data

Results flagged for a closer look

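A single member changed differently in neighbouring urothelial layers. From healthy to acute bladders, *Igfbp5* changed by -1.33 more on the log2 scale in superficial than in intermediate cells (SE 0.25, edgeR class-by-group test with library as a block, adjusted p = 0.018), where 0.293% of all genes tested passed. This was 1 of 70 member tests in 8 such fits, and the tests were added after the comparisons had been seen. Of the 70, 16 had an unadjusted p under 0.05, and the share of all genes at that unadjusted threshold was not counted. The levels were 52.8 and 12.6 CPM in healthy and 32.2 and 17.6 in acute intermediate cells, and 46.8 and 7.6 against 10.3 and 6.1 in superficial cells. Within intermediate cells the 2 healthy libraries lay on either side of both acute libraries. Without healthy replicate 1 the difference was -0.93 (edgeR adjusted p = 0.77), and with clustering without integration it was -0.47 (adjusted p = 0.77). It also missed the threshold without acute replicate 1 (-1.28, edgeR adjusted p = 0.091) and with DESeq2 (-1.28, adjusted p = 0.099).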

How the results depend on the processing

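No called result changed direction in any setting run, and single changes that were not called were not recomputed. The 29 member calls held in 336 of 371 alternative settings and were lost in 35, and the 49 pathway gene calls held in 564 of 619. The number of members called stayed within 1.5 times its reported value in 256 of 263 settings. Counts of 0 that stayed 0 were included in the 256. Among them were those of the test of neighbouring classes, where no pair could pass as reported. Of the 9 levels in leading classes, 1 moved by more than the spread between libraries, *Igfbp6* in *Pi16* fibroblasts, to 1416.5 CPM with mixed sub-clusters kept. In chronic endothelial cells, 3 members were called as reported, 1 with the stricter cell filter (*Igfbp3*), 1 with clustering without integration (*Igfbp4*) and 0 with at least 10 cells per library, a setting added after seeing the data in which a second healthy library entered. Leaving out 1 library gave 0 to 3 there, 0 without chronic replicate 1. Without healthy replicate 2, 1 member was called where none was as reported, *Igfbp5* in acute and in chronic superficial cells and *Igfbp2* in chronic myofibroblasts (range 0 to 1 each). The cause of these shifts was not tested.

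The labels give no reason to pair libraries by replicate number, and the same-number deviations correlated in both directions (-0.0884 to 0.322 between healthy and acute, -0.316 to 0.097 between healthy and chronic, -0.2 to 0.0291 between acute and chronic libraries over 6 classes). With the number as a replicate block, 2 members were called in chronic endothelial cells and *Igfbp4* was lost (-2.35, edgeR adjusted p = 0.092).

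Clustering without integration left a basal class in only 1 library and so gave no value for the 3 basal comparisons, and leaving out healthy replicate 1 left no healthy endothelial library. The thinnest sums behind a condition call were the 27 and 26 endothelial cells of the chronic libraries.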
